A study of Mus musculus with 6 samples.

Results

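*Mpo*, *Elane*, *Prtn3*, *Ctsg* and *Ms4a3* are genes of the neutrophil primary granule and of the precursor that fills it, and they were followed across 6 RNA sequencing libraries of peritoneal cell-derived mast cells (PCMC). The genes were taken by name from the table of normalized counts, and all 5 were present among its 17320 genes and passed the filter on low values. The cells came from the peritoneal cavity of C57BL/6 mice and were grown with stem cell factor (SCF) and IL-3 for 9 days in both groups. The 3 *Mcemp1*+/+ libraries are replicates 1, 2 and 3. The 3 libraries labelled *Mcemp1*-/- are replicates 4, 5 and 6, from mice that carry a small CRISPR-Cas9 deletion in exon 1 of *Mcemp1*, a membrane protein gene of mast cells, which shifts the reading frame. The mutation is carried by all cells of these mice, not by mast cells alone, and no source used here says whether each library came from a separate mouse or culture, or whether the sequenced cells were sorted after culture. A p-value below speaks for the spread among the libraries and no further.

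Primary or azurophil granules are packed at the promyelocyte stage, when a granulocyte precursor makes myeloperoxidase and a family of serine proteases in bulk. The mRNAs of these proteins disappear as the cell matures, while the proteins stay stored until the neutrophil kills a microbe or leaves its granule contents in tissue. Secondary and tertiary granules are filled later, from the myelocyte stage on, so the mRNAs of the granule classes mark successive stages of one lineage. Mast cells store a different set of proteases, above all carboxypeptidase A3, chymases and tryptases.

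The windows upstream of the RefSeq starts of the 5 genes are shown because 4 of the genes moved together and 1 did not. The sequences are from RefSeq on GRCm38.p6, read 5′ to 3′ on the strand of the gene. Each ends at the RefSeq start or before the first base met of an exon annotated in GENCODE vM21. The *Prtn3* window lies inside the gene as GENCODE vM21 places it, from 79874476 to 79883174, and not upstream of it. Capitals mark GAGGAA, a longer form of the GGAA core bound by ETS factors such as PU.1. Other runs of GGAA, as in *Ctsg* and *Ms4a3*, are not marked. The windows are chr11:87793534-87793580 (+) for *Mpo*, chr10:79886062-79886246 (+) for *Elane*, chr10:79879417-79879613 (+) for *Prtn3*, chr14:56102575-56102824 (-) for *Ctsg* and chr19:11640852-11641101 (-) for *Ms4a3*.
Mpo: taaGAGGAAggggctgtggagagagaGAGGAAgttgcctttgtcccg
Elane: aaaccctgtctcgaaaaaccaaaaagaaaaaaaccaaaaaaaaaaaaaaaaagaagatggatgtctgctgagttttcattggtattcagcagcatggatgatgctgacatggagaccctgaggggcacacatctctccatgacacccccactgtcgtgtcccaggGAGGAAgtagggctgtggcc
Prtn3: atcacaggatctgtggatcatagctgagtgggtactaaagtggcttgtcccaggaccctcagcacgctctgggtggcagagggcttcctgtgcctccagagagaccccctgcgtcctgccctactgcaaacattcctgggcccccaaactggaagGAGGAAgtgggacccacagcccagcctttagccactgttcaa
Ctsg: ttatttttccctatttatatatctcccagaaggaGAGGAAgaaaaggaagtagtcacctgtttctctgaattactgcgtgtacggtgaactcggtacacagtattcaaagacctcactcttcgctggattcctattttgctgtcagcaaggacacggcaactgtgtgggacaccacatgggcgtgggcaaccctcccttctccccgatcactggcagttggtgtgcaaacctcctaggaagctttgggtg
Ms4a3: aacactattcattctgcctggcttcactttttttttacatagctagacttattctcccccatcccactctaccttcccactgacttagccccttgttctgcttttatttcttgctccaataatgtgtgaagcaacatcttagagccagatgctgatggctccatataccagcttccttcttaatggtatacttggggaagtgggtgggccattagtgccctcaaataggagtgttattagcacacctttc
In the full windows of 250 bases before each RefSeq start, searched on both strands, GAGGAA occurred in 4 of the 5 genes and in 23.1% of 27025 promoters of the mouse. *Mpo* held 2 matches, 247 and 224 bases before the start. *Elane* had 1 at 85 bases, *Prtn3* 1 at 95 bases and *Ctsg* 1 at 216 bases. The C/EBP motif TTGCNNNA occurred in *Mpo*, *Elane*, *Prtn3* and *Ms4a3* and in 29.4% of promoters, and none was in the *Ctsg* window. The matches of *Mpo* and *Elane*, 55 and 61 bases before the start, lie in the part left out above as annotated exon. The RUNX core TGTGGT was found in *Ctsg* alone of the 5 (14.2% of promoters), as was TATAAA (13%). Both of these *Ctsg* matches are on the reverse strand, 79 and 237 bases before the start. The MYB core AACNG occurred in 4 of 5, all but *Ms4a3*, and in 74.1% of promoters, so it separates little, and its longer form AACNGTT occurred in none of the 5 (3.68% of promoters). A match is a run of letters and not a shown binding site. AACNGTT contains AACNG, so these counts are not independent.

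The library labelled *Mcemp1*-/- replicate 6 stood apart from its group. *Mcemp1* itself measured 9.80, 7.68 and 16.9 in the 3 *Mcemp1*+/+ libraries, 0.201 and 0.0849 in replicates 4 and 5, and 4.23 in replicate 6. Replicate 6 was thus below the 3 *Mcemp1*+/+ libraries and well above replicates 4 and 5, and its level went against its label. The deletion is small, so the count does not read the deletion itself. Whether the label of replicate 6 is right was not tested, and every value that includes replicate 6 or leaves it out rests on that label. All values are normalized counts, close in scale to CPM, with library totals from 932999 to 989051 and no adjustment for gene length. *Xist*, expressed in female cells, was 1297 in *Mcemp1*+/+ replicate 3, 1481 in replicate 6 and under 1 in the others. *Mcemp1*+/+ replicate 2 held 35265 normalized counts of small nucleolar and nuclear RNAs, against 24.8 to 29.1 in the others. The column names of the table end in S4 for both replicates 4 and 6 and in S5 for both replicates 2 and 5, and the sequencing run of each library is not given in the sources used here. Each of the 5 genes is given with all 6 libraries and without replicate 6, while calls for neighbours and for the other lists are mainly those without it. Mast cell genes were present in all 6 libraries, with *Cpa3*, the mast cell carboxypeptidase, between 14213 and 27818 normalized counts and *Kit*, the SCF receptor, between 1700 and 3265.

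Of the 5 genes, 4 were abundant in *Mcemp1*+/+ cells and almost absent from *Mcemp1*-/- replicates 4 and 5, while the library labelled *Mcemp1*-/- replicate 6 had them at the *Mcemp1*+/+ level. *Ctsg* was the exception and stayed between 346 and 654 normalized counts in every library. Together the 5 genes summed to 9285, 6967 and 8774 normalized counts in the *Mcemp1*+/+ libraries, or 0.995%, 0.726% and 0.938% of the library totals. The sum was 439 and 349 in replicates 4 and 5 and 8304 in replicate 6. Without *Ctsg*, the sum was 3.35 and 3.06 in replicates 4 and 5, against 6531 to 8728 in the *Mcemp1*+/+ libraries.

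**Figure D1:**
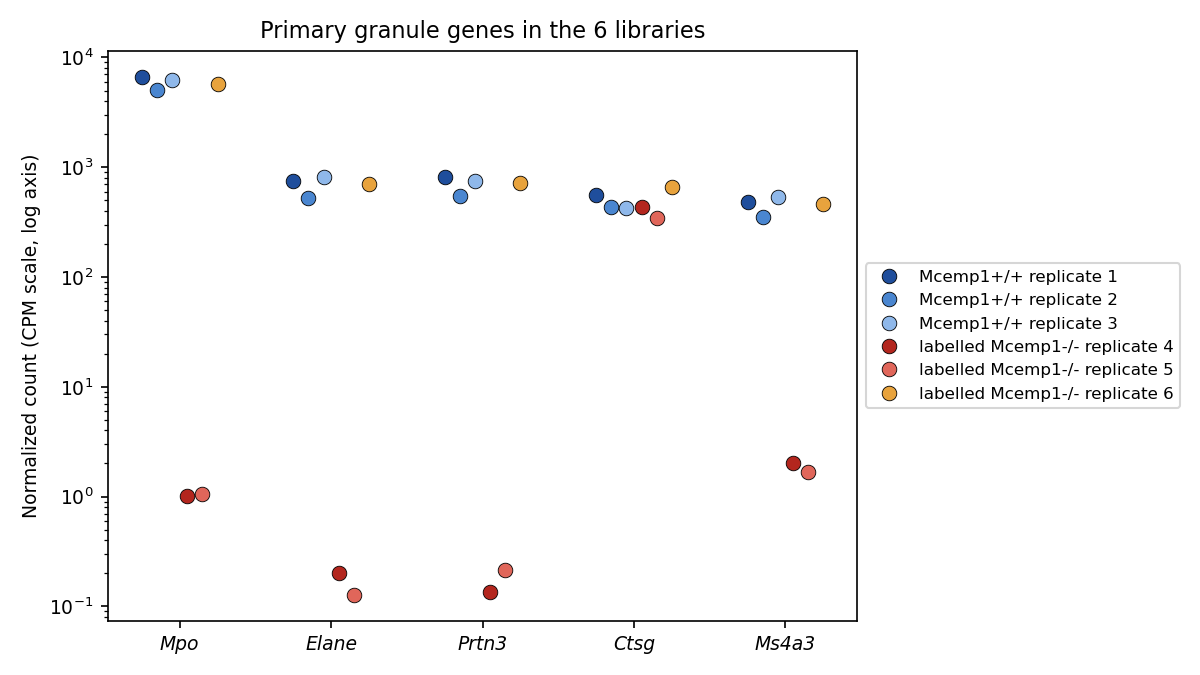
Normalized counts (CPM scale, log axis) of the 5 primary granule genes, 1 point per library, with *Mcemp1*+/+ replicates in blue, *Mcemp1*-/- replicates 4 and 5 in red and the library labelled *Mcemp1*-/- replicate 6 in orange. *Mpo*, *Elane*, *Prtn3* and *Ms4a3* lie between 0.127 and 2.01 in replicates 4 and 5 and between 352 and 6685 in the other 4 libraries, while *Ctsg* lies between 346 and 654 in all 6.

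*Mpo* encodes myeloperoxidase, the heme enzyme that makes hypochlorous acid from hydrogen peroxide and chloride. It reached 6685, 5105 and 6251 normalized counts in the *Mcemp1*+/+ libraries (6014 ± 816, SD, n = 3), against 1.004 and 1.063 in replicates 4 and 5 and 5753 in replicate 6. Replicates 4 and 5 thus held 0.0167% and 0.0177% of the *Mcemp1*+/+ mean and replicate 6 held 95.7%, so the groups overlapped through replicate 6 alone. With all 6 libraries the log2 fold change from limma was -7.98 (SE 3.25, adjusted p = 0.20), on log2(normalized count + 0.479). Without replicate 6, *Mpo* fell by 11.95 on this scale (SE 0.12, adjusted p = 6e-07 from limma, 3 libraries against 2), the largest fall of the 13444 genes that both fits tested. In bulk RNA, fewer cells of a type and less RNA per cell cannot be told apart.

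*Elane* encodes neutrophil elastase, a serine protease of the granule. It was at 742, 525 and 814 normalized counts in the *Mcemp1*+/+ libraries (694 ± 150, SD, n = 3), at 0.201 and 0.127 in replicates 4 and 5, and at 707 in replicate 6. The values of replicates 4 and 5 are both 3 times the lowest value found in their library, so the size of the fall rests on very few reads. With all 6 libraries the log2 fold change was -6.69 (SE 2.76, adjusted p = 0.20 from limma). Without replicate 6, *Elane* fell by 10.05 (SE 0.19, adjusted p = 3.8e-06 from limma).

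*Prtn3* encodes proteinase 3, a close relative of elastase and the target of autoantibodies in human granulomatosis with polyangiitis. It was at 818, 549 and 749 normalized counts in the *Mcemp1*+/+ libraries (705 ± 140, SD, n = 3), at 0.134 and 0.212 in replicates 4 and 5, and at 725 in replicate 6. With all 6 libraries the log2 fold change was -6.69 (SE 2.76, adjusted p = 0.20 from limma), and without replicate 6 *Prtn3* fell by 10.06 (SE 0.17, adjusted p = 3.8e-06). *Prtn3* and *Elane* lie side by side on the plus strand of chromosome 10 of GRCm38. In GENCODE vM21 *Prtn3* is at 79874476 to 79883174 and *Elane* at 79886247 to 79888215, with starts 11.8 kb apart. Their ratio of normalized counts, *Prtn3* to *Elane*, was 1.10, 1.04 and 0.920 in the *Mcemp1*+/+ libraries and 1.03 in replicate 6, so the pair kept nearly 1 proportion where it was abundant. In replicates 4 and 5 the ratio was 0.667 and 1.67, from values of 2 to 5 times the lowest value of the library. *Plppr3*, which overlaps *Prtn3* on the other strand, was at 56.2 to 78.9 in the *Mcemp1*+/+ libraries, 3.57 and 4.49 in replicates 4 and 5, and 61.1 in replicate 6. Whether the counting used strand is not given in the sources used here, and reads of overlapping genes cannot be told apart without it.

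*Ms4a3* encodes a membrane protein with several transmembrane segments, made by granulocyte-monocyte progenitors and used in mice to trace their descendants. It was at 483, 352 and 536 normalized counts in the *Mcemp1*+/+ libraries (457 ± 95.0, SD, n = 3), at 2.01 and 1.66 in replicates 4 and 5, and at 465 in replicate 6. Replicates 4 and 5 held 0.439% and 0.362% of the *Mcemp1*+/+ mean, a larger residue than for *Mpo*, *Elane* or *Prtn3*, none of which exceeded 0.0301%. The ratio of *Ms4a3* to *Mpo* accordingly was 0.0723, 0.0689 and 0.0858 in the *Mcemp1*+/+ libraries, 0.0808 in replicate 6, and 2.0 and 1.56 in replicates 4 and 5. With all 6 libraries the log2 fold change was -5.06 (SE 2.09, adjusted p = 0.20 from limma), and without replicate 6 *Ms4a3* fell by 7.61 (SE 0.18, adjusted p = 8.3e-06).

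*Ctsg* encodes cathepsin G, a serine protease with chymotrypsin-like activity that human mast cells store as well as neutrophils. Its normalized counts were 557, 437 and 424 in the *Mcemp1*+/+ libraries (473 ± 73.4, SD, n = 3). It was at 436, 346 and 654 in replicates 4, 5 and 6 (479 ± 158, SD, n = 3). Replicate 4 lay within the *Mcemp1*+/+ range, replicate 5 below it and replicate 6 above it, so the groups overlapped. The log2 fold change was -0.02 with all 6 libraries (SE 0.25, adjusted p = 0.96 from limma) and -0.27 without replicate 6 (SE 0.15, adjusted p = 0.20), neither past the threshold. *Ctsg* supplied 4.83% to 6.27% of the summed counts of the 5 genes in *Mcemp1*+/+ libraries and 99.2% and 99.1% in replicates 4 and 5.

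In the fit of all 6 libraries, none of the 5 genes passed an adjusted p of 0.05, and 1 of them, *Mpo*, was under 0.05 without adjustment (limma). Of all 13513 genes tested, 8 were lower (0.0592%) and 2 higher (0.0148%) in *Mcemp1*-/- cells, and 3430 were under 0.05 without adjustment. Without replicate 6, 4 of the 5 genes were lower and none was higher, where 22.4% of the 13503 genes tested were lower and 19.4% higher. The size of the falls set the genes further apart from the rest than their number did. *Mpo*, *Prtn3* and *Elane* took the first 3 places among falls, while *Ms4a3* came in place 11 and *Ctsg* in place 3847. These first 3 were the only genes that fell by at least 10 on the log2 scale, but *Thbs1* was close, with a fall of 9.91. With a pseudocount of 2 CPM and without replicate 6, *Elane* was at -8.36 and *Prtn3* at -8.38. The places were not ranked with that pseudocount. A fall of at least 7 was seen for 23 genes (0.171%) and a fall of at least 5 for 96 (0.714%). An exact two-sided permutation test of 3 against 3 libraries cannot go below p = 0.1 and gave 0.2 for each of the 4 genes and 0.9 for *Ctsg*.

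**Figure D2:**
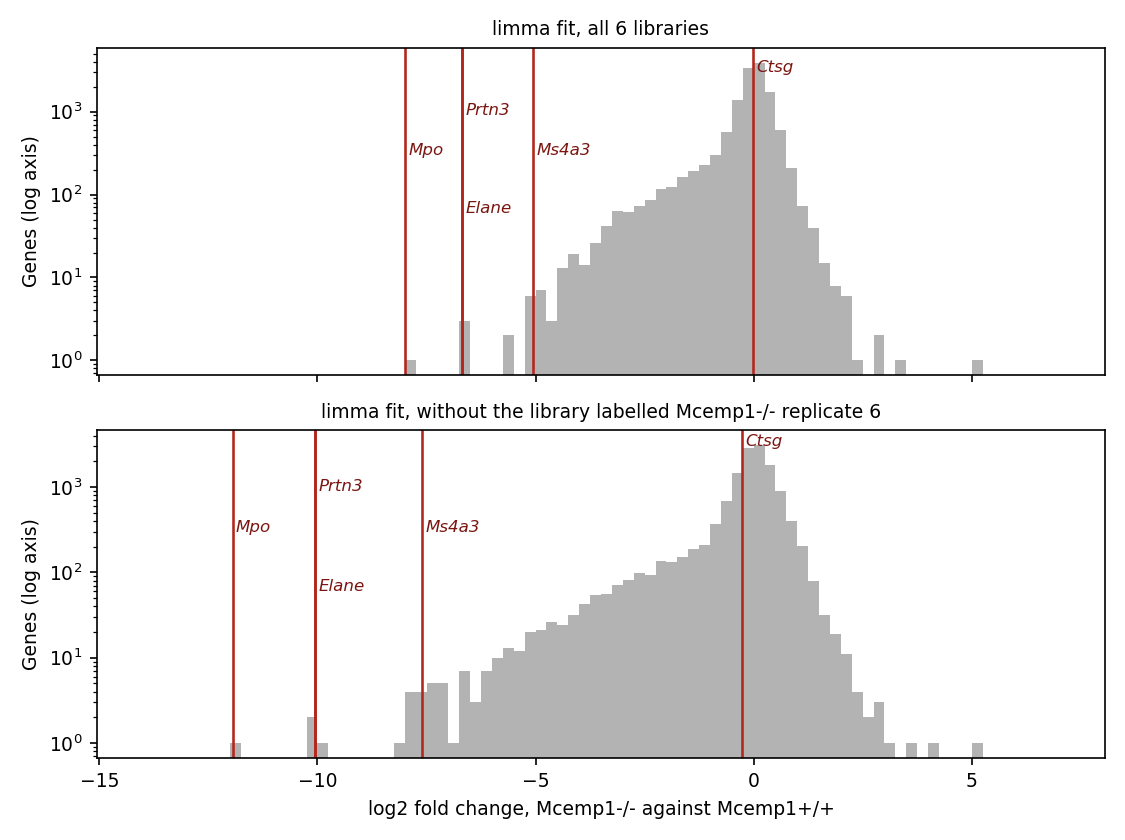
Histograms of the limma log2 fold change, *Mcemp1*-/- against *Mcemp1*+/+, over all genes tested (number of genes on a log axis), with all 6 libraries above and without the library labelled *Mcemp1*-/- replicate 6 below, and red lines at the 5 primary granule genes. *Mpo* is at the far left of both, at -7.98 and -11.95, and *Ctsg* sits in the main peak at -0.02 and -0.27.

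Among the *Mcemp1*+/+ libraries the 5 genes mostly varied together, by more than the median gene. The highest library was 1.31 times the lowest for *Mpo* and for *Ctsg*, 1.49 for *Prtn3*, 1.52 for *Ms4a3* and 1.55 for *Elane*, with coefficients of variation of 13.6% to 21.7% (n = 3). The same ratio was 1.18 for the median of all genes tested. Replicate 2, the library with small RNAs, was the lowest of the 3 for *Mpo*, *Elane*, *Prtn3* and *Ms4a3*, and replicate 3 was the lowest for *Ctsg*. The library labelled *Mcemp1*-/- replicate 6 lay inside the *Mcemp1*+/+ range for the same 4 genes, at 95.7% to 103% of the mean. It did so for 5705 of all 13513 genes tested. Per 1000 coding bases, the *Mcemp1*+/+ mean of normalized counts was 2788 ± 379 for *Mpo* (SD, n = 3), 922 ± 183 for *Prtn3*, 869 ± 188 for *Elane*, 712 ± 148 for *Ms4a3* and 601 ± 93.4 for *Ctsg*. *Mpo* exceeded the next gene by more than the spread, whereas each later neighbour in this order differed from the one before by less than the larger of their SDs. Without the division by length, *Ctsg* stood above *Ms4a3*. Coding length leaves out untranslated bases. Annotated exons span 984 bases for *Elane*, 1732 for *Prtn3*, 1033 for *Ctsg* and 1884 for *Ms4a3*, against coding lengths of 798, 765, 786 and 642. The order of these 4 genes therefore depends on the length used.

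The similarity of the profiles was measured as the root mean square (RMS) difference of log2 values over the 6 libraries, each gene centred on its own mean. It was 0.12 between *Elane* and *Prtn3*, the closest pair, 0.88 between *Mpo* and *Prtn3*, and 5.45 between *Mpo* and *Ctsg*. The 10 other genes nearest to the mean profile of the 5 were *Anxa3* (RMS difference 0.20), *Plac8* (0.24), *Tfec* (0.26), *Tifab* (0.29), *Hp* (0.31), *Igsf6* (0.31), *Cebpa* (0.36), *Clec12a* (0.39), *C3* (0.40) and *Clec5a* (0.44). *Anxa3*, an annexin of neutrophil granules, was at 206, 160 and 247 normalized counts in the *Mcemp1*+/+ libraries, 0.603 and 0.212 in replicates 4 and 5, and 212 in replicate 6. *Cebpa*, the C/EBP factor that commits progenitors to the granulocyte lineage, was at 115, 97.7 and 113, then 0.268 and 0.0849, then 94.5. The mean profile includes *Ctsg*, which did not move with the other 4, so the 10 genes are not those nearest to *Mpo*, *Elane* or *Prtn3*. *Thbs1*, a secreted matrix glycoprotein and not among the 10, was the gene outside the 5 nearest to *Mpo* (1.20), *Elane* (0.66) and *Prtn3* (0.75). *Anxa3* was nearest to *Ms4a3* (0.18) and *Ighm* to *Ctsg* (0.11). The 6 libraries share a single contrast, so many genes follow it, and the likeness is a description.

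The neighbours of each gene were read from genes whose start lies within 200 kb, and the counts below stand beside 22.4% of all genes lower and 19.4% higher without replicate 6. With all 6 libraries *Epx*, near *Mpo*, was the only one of 47 neighbours to pass, and the others had an adjusted p of 0.11 to 0.99 (limma). Without adjustment 18 of the 47 were under 0.05, beside 3430 of all 13513 genes tested. Around *Ctsg*, on the minus strand of chromosome 14 (56099881 to 56102574), lie the mast cell chymases. Of 8 neighbours tested, 7 rose and 1 fell without replicate 6, with a median log2 fold change of 1.66 beside -0.01 over all genes. *Mcpt4*, a chymase of connective tissue mast cells, was at 306, 314 and 152 normalized counts in the *Mcemp1*+/+ libraries, 1172 and 896 in replicates 4 and 5 and 325 in replicate 6. It rose by 2.07 without replicate 6 (SE 0.33, adjusted p = 0.0041 from limma), and with all 6 libraries its log2 fold change was 1.51 (adjusted p = 0.17). *Mcpt1* was at 9.62, 9.88 and 4.67, then 143 and 119, then 32.8, and *Gzmb*, a granzyme, was at 903, 869 and 766, then 2431 and 2242, then 1271. *Mcpt8*, a protease of basophils and the nearest neighbour of *Ctsg*, was at 29.8, 33.6 and 30.5, then 19.8 and 15.6, then 13.6, and fell by 0.81 (SE 0.12, adjusted p = 0.0031). Relative to mast cell proteases *Ctsg* was lower in replicates 4 and 5. Its ratio to *Cpa3* was 0.0392, 0.0306 and 0.0287 in the *Mcemp1*+/+ libraries, 0.0163 and 0.0124 in replicates 4 and 5 and 0.0443 in replicate 6, and its ratio to *Cma1*, a chymase, was 0.127 to 0.182, then 0.0857 and 0.0671, then 0.226. In replicates 4 and 5, *Cpa3* itself was at 185% and 193% of its *Mcemp1*+/+ mean and *Cma1* at 161% and 163%. A gene with an unchanged level would thus also have lower ratios there, and no test was made of the ratios.

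Around the other genes the picture was mixed. Near *Elane*, 9 of 22 neighbours tested fell and 1 rose without replicate 6, where 22.4% of all genes were lower and 19.4% higher. The 9 include *Prtn3*, itself 1 of the 5 genes. *Prss57*, a serine protease of the same granule, went from 51.7, 20.8 and 85.0 normalized counts to 0.0669 and 0.0425 in replicates 4 and 5, with 43.4 in replicate 6, and *Ptbp1*, an RNA-binding protein gene 31.8 kb from the start of *Elane*, was at 465 to 568 in *Mcemp1*+/+ and 475 and 461 in replicates 4 and 5. Near *Prtn3*, 10 of 23 fell and 1 rose, with *Elane* itself among the 10. Most of the other neighbours of *Prtn3* are shared with *Elane*. Near *Mpo*, on the plus strand of chromosome 11 (87793581 to 87804413), 5 of 10 fell and 3 rose. *Gm11505*, antisense to *Mpo*, was at 9.81, 9.29 and 9.91 and then at 0.0669 and 0.0425, with 10.7 in replicate 6, and without the strand its reads and those of *Mpo* cannot be told apart. For *Gm11505* and *Prss57*, the values in replicates 4 and 5 are the lowest values found in these libraries. *Epx*, eosinophil peroxidase and a relative of *Mpo*, was at 15.9, 32.9 and 48.5 in the *Mcemp1*+/+ libraries, 0.0669 and 0.255 in replicates 4 and 5 and, unlike *Mpo*, 0.121 in replicate 6, and it passed with all 6 libraries (log2 fold change -5.59, SE 0.41, adjusted p = 0.017 from limma). Near *Ms4a3*, on the minus strand of chromosome 19 (11629496 to 11640851), 4 of 7 fell and 2 rose. *Ms4a2*, the beta chain of the IgE receptor and the family member beside *Ms4a3*, was at 992, 1030 and 1051, then 2339 and 2357, then 1410, and rose by 1.20 (SE 0.05, adjusted p = 5.4e-05 without replicate 6). *Ms4a6c*, a family member of monocytes and macrophages, fell by 3.85 (SE 0.15).

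**Figure D3:**
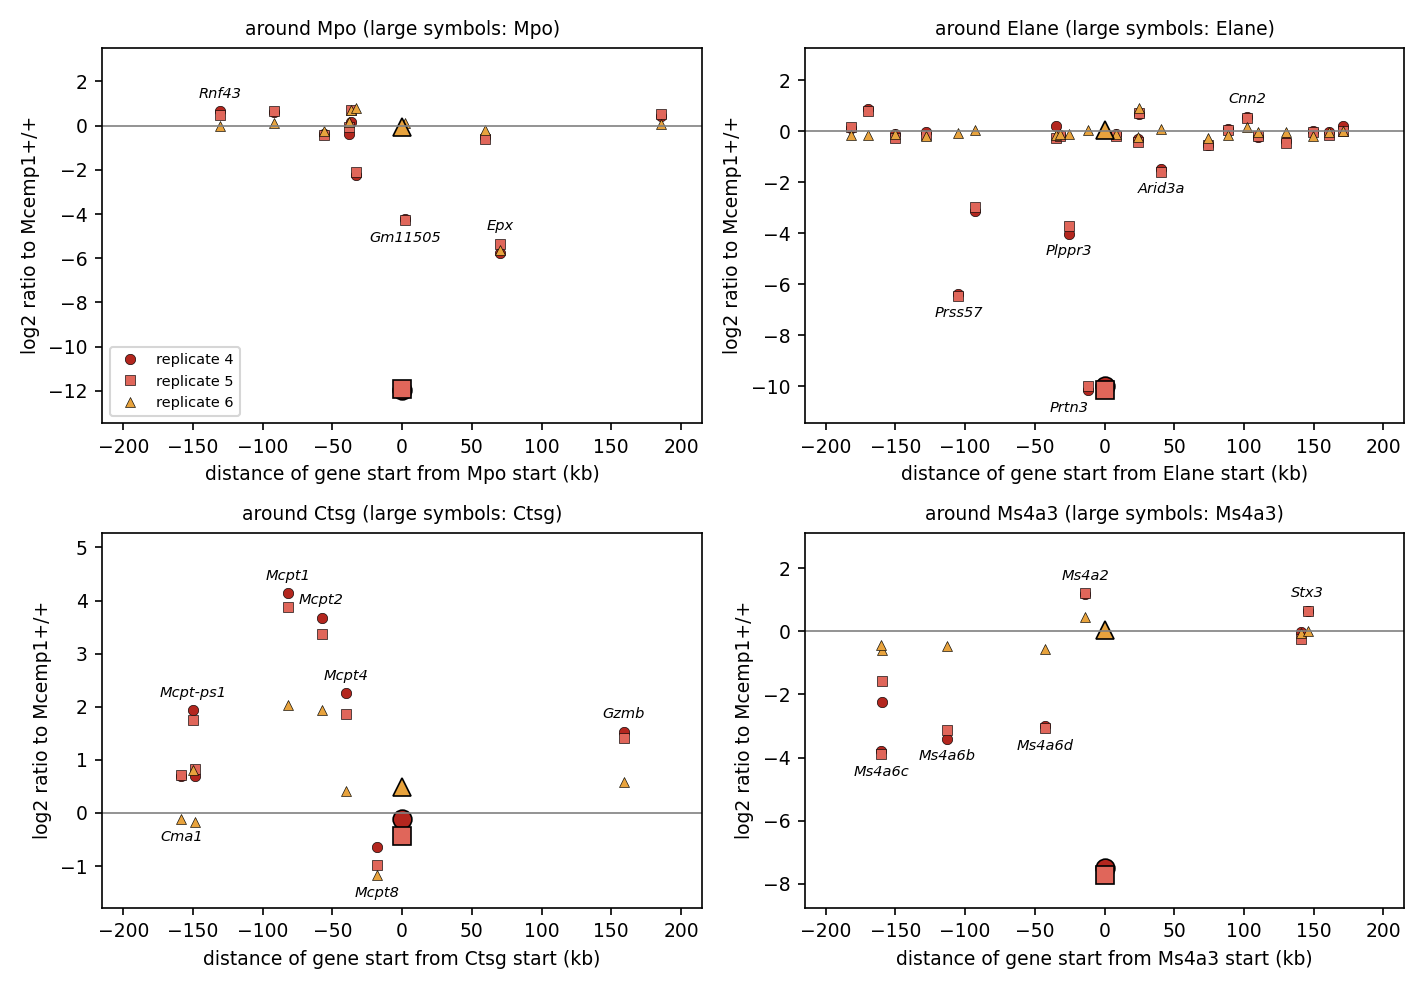
Log2 ratio to the *Mcemp1*+/+ mean, with 0.479 added to both, of the genes around *Mpo*, *Elane*, *Ctsg* and *Ms4a3* in replicates 4, 5 and 6, against the distance between gene starts in kb, with larger symbols for the named gene itself. *Mpo*, *Elane* with *Prtn3*, and *Ms4a3* are the lowest points of their regions in replicates 4 and 5 and close to 0 in replicate 6, while *Ctsg* is close to 0 in replicates 4 and 5 among chymases that lie above it there.

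The wider granule programme was read from 11 further lists, given as counts past the limma threshold without replicate 6, to be set beside 22.4% lower and 19.4% higher over all genes, with a median log2 fold change of -0.01. With all 6 libraries, the only ones of 113 list genes past the threshold were *Prg2* and *Epx* of the eosinophil list. The other list genes had an adjusted p of 0.095 to 0.94 (limma). Without adjustment 44 of the 113 were under 0.05, beside 3430 of all 13513 genes tested. All list calls other than those of *Prg2* and *Epx* therefore rest on leaving out replicate 6. With 6 libraries and a pseudocount of 2 CPM, *Prg2* and *Epx* did not pass either. Of 8 further contents of azurophil granules tested, 3 fell and 3 rose, with a median log2 fold change of -0.01. Those that fell, *Prss57*, *Lyz2* (lysozyme) and *Fcnb* (ficolin B), are made chiefly by myeloid cells, while *Cd63* and *Man2b1*, which rose, encode lysosomal proteins of many cell types. *Lyz2* was at 437, 807 and 945 normalized counts in the *Mcemp1*+/+ libraries, 14.6 and 2.29 in replicates 4 and 5 and 892 in replicate 6.

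The genes that process and pack the proteases went both ways. Of 12, 4 fell and 3 rose, near the shares over all genes, with a median of -0.04 and with *Lyst*, the lysosomal trafficking regulator, as the largest fall (-1.64, SE 0.22). *Ctsc*, dipeptidyl peptidase 1, which removes the propeptide of *Elane*, *Prtn3* and *Ctsg* products, was at 357 to 416 in *Mcemp1*+/+ libraries, 412 and 441 in replicates 4 and 5 and 366 in replicate 6, and it was named for its role after its values were seen. *Srgn*, the proteoglycan core on which granule proteases are stored, rose by 0.43 (SE 0.07), and *Calr*, an endoplasmic reticulum chaperone of myeloperoxidase, fell by 0.48 (SE 0.06). *Pdia3*, a protein disulfide isomerase, was at 883 to 970 in *Mcemp1*+/+ libraries, 907 and 914 in replicates 4 and 5 and 965 in replicate 6. Of 8 protease inhibitors tested, 4 fell and 2 rose. *Serpinb1a*, the cytosolic inhibitor of elastase, proteinase 3 and cathepsin G, was at 972, 1018 and 1212, then 1471 and 1329, then 1108, and rose by 0.40 (SE 0.11, adjusted p = 0.028), while *Slpi*, a secreted inhibitor of elastase, fell by 4.60 (SE 0.26). *Serpinb6a*, an intracellular serpin, was at 39.2, 41.4 and 39.4, then 91.5 and 88.8, then 54.6, and rose by 1.16 (SE 0.06). *Serpina3g* was at 83.7, 146 and 88.0, then 78.9 and 103, then 60.5, and did not pass (adjusted p = 0.60 from limma).

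Of 12 transcription factors of granulocyte precursors, 9 fell and 2 rose, with a median of -1.71. Over all genes 22.4% were lower and 19.4% higher without replicate 6. The factors that bind the motifs searched above did not share a direction. *Cebpa* fell by 7.39 (SE 0.15) and *Cebpe*, needed for secondary granules, by 5.85 (SE 0.41), *Spi1*, which encodes PU.1, fell by 0.96 (SE 0.11) and *Myb* by 1.42 (SE 0.12). *Runx1* rose by 0.64 (SE 0.08) and its partner *Cbfb* by 0.34 (SE 0.06). *Gfi1*, a repressor needed for neutrophil formation, was at 105, 82.3 and 147, then 16.1 and 17.5, then 112. Of 11 surface and early genes of granulocyte-monocyte precursors, 9 fell and 2 rose (median -5.31), the latter being *Cd34* and *Cd93*, which were at 395 to 419 and 368 to 429 in *Mcemp1*+/+ libraries and at 627 and 676 and at 589 and 547 in replicates 4 and 5.

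In their sums, markers of later neutrophil stages and of monocytes were lower in replicates 4 and 5 and present in replicate 6, like the primary granule genes. Single genes did not all follow the sums. Replicate 6 lay inside the *Mcemp1*+/+ range for 9 of 11 secondary and tertiary granule genes, 5 of 10 mature neutrophil genes and 5 of 10 monocyte and macrophage genes. *Mmp9* was at 3.55 and 0.722 in replicates 4 and 5 and 0.605 in replicate 6, and *Retnlg* at 1.21, 0.170 and 0.0806. The eosinophil sum was low in all 3 libraries labelled *Mcemp1*-/-, and the mast cell sum was higher in replicates 4 and 5. The part of these cells in the result was not tested. Of 11 secondary and tertiary granule genes 10 fell and none rose (median -5.00), of 10 mature neutrophil genes 7 fell (median -2.69), of 10 monocyte and macrophage genes 10 fell (median -3.91) and of 9 eosinophil genes 7 fell (median -2.71). Of 7 basophil genes 2 fell and 4 rose (median 0.82), and of 16 mast cell genes 1 fell and 14 rose (median 0.89). These counts stand beside 22.4% lower and 19.4% higher over all genes without replicate 6. The summed normalized counts of the mast cell list were 25182 to 26345 in *Mcemp1*+/+, 47742 and 48904 in replicates 4 and 5 and 26609 in replicate 6. The sums of the secondary and tertiary granule list were 861, 893 and 2740, then 36.7 and 6.92, then 1850, and those of the monocyte and macrophage list were 709, 642 and 415, then 29.4 and 22.1, then 669. The sums of the eosinophil list were 53.3, 91.2 and 144, then 10.7 and 11.3, then 12.8. Among its genes, *Prg2*, eosinophil major basic protein, was at 18.0, 33.5 and 55.9, then 0.134 and 0.255, then 0.0806, whereas *Ccr3*, the eotaxin receptor, was at 2.47 to 5.78 in all 6 libraries. *S100a9* and *S100a8* encode the subunits of calprotectin in mature neutrophils. *S100a9* fell by 7.75 (SE 0.79), *S100a8* fell by 7.77 (SE 0.67), and *Trem3*, a surface receptor of the same list, fell by 5.61 (SE 0.20). Of the monocyte list, *F13a1*, coagulation factor XIII A, fell by 3.45 (SE 0.59), *Ccr2*, a chemokine receptor, fell by 4.61 (SE 0.37), and *Ly6c2*, the antigen of inflammatory monocytes, fell by 6.98 (SE 0.16). *Il1rl1*, the IL-33 receptor of mast cells, rose by 0.87 (SE 0.08), and *Cyp11a1*, a steroid-making enzyme on the basophil list, rose by 0.74 (SE 0.07). The other genes of the basophil list that rose were *Ms4a2*, *Gzmb* and *Cd200r3*. Those that fell, *Mcpt8* and *Prss34*, were below every *Mcemp1*+/+ library in all 3 libraries labelled *Mcemp1*-/-. *Prss34*, a gene of low level, was at 1.37 to 2.36 in *Mcemp1*+/+ libraries, 0.268 and 0.510 in replicates 4 and 5 and 0.242 in replicate 6. No gene of the table has a value of exactly 0, so a low value does not show that a marker is present. In replicates 4 and 5, 718 and 565 genes shared the lowest value of the library. Why the table holds no value of 0 was not tested.

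The spread of the primary and of the secondary granule genes over the libraries is given side by side, with no test. Between *Mcemp1*+/+ libraries, the highest was 1.49 times the lowest for the median primary granule gene and 3.79 times for the median secondary or tertiary granule gene, beside 1.18 over all genes tested. Replicate 3 was the highest *Mcemp1*+/+ library for 10 of 11 secondary and tertiary granule genes and for 2 of 5 primary granule genes, beside 36.5% of all genes tested. *Ngp*, a secondary granule protein, was at 411, 389 and 1625, then 7.30 and 0.340, then 756. *Chil3*, a chitinase-like protein, was at 193, 196 and 404, then 4.15 and 0.127, then 693. Replicate 4 exceeded replicate 5 for 10 of 11 secondary and tertiary granule genes, by 4.92 times in the median. It did so for 3 of 5 primary granule genes, *Ctsg* among the 5, by 1.21 times in the median, beside 56.8% of all genes. The lowest value was 0.0669 in replicate 4 and 0.0425 in replicate 5, which by itself raises such ratios for genes near it. *Elane*, at 3 times the lowest value in both libraries, had a ratio of 1.58. *Ltf*, lactoferrin, was at 8.44 in replicate 4 and 0.170 in replicate 5, whereas *Mpo* was at 1.004 and 1.063. The lists are of different level.

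**Figure D4:**
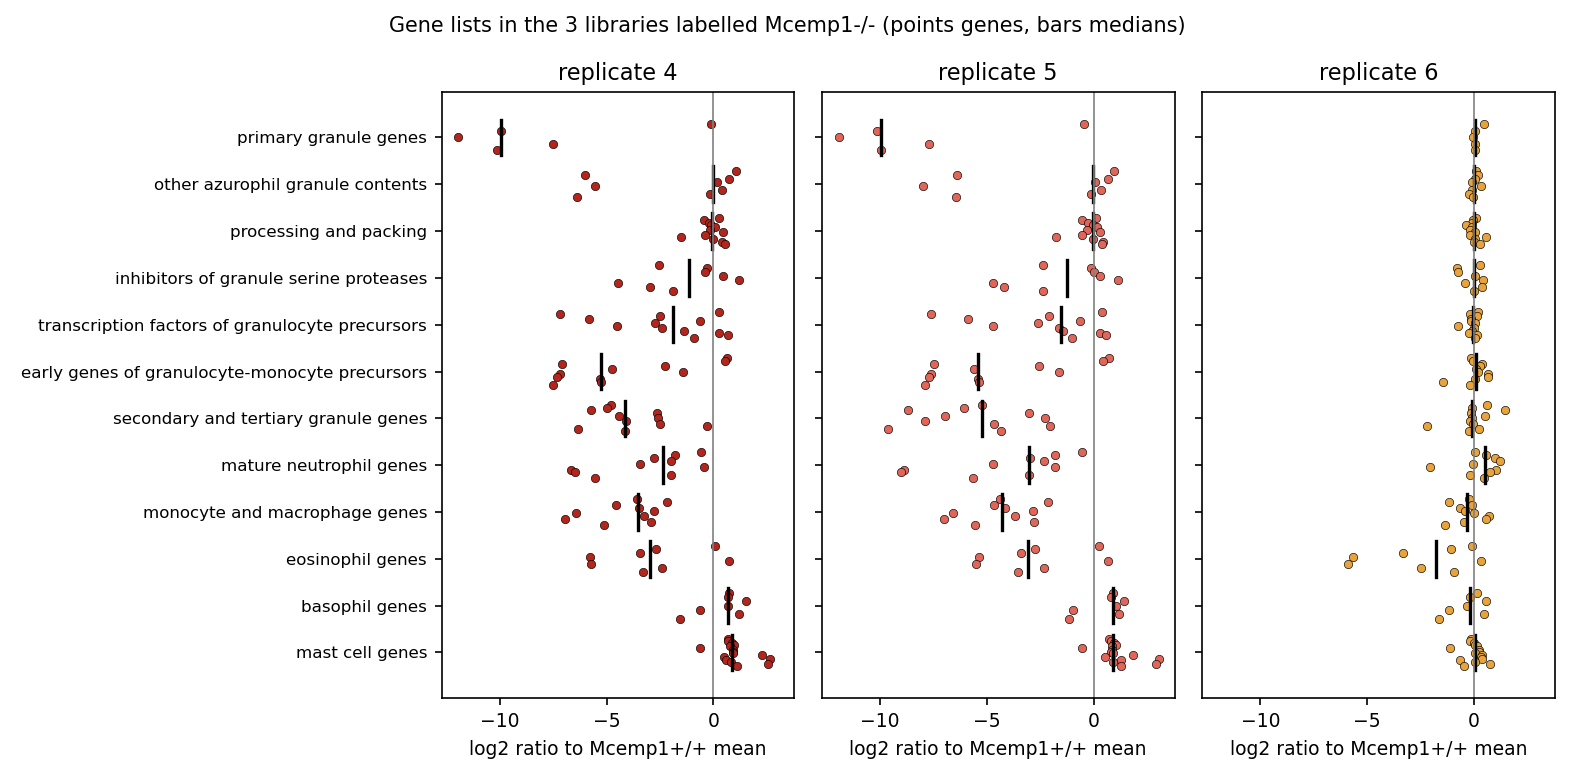
Log2 ratio to the *Mcemp1*+/+ mean, with 0.479 added to both, in each library labelled *Mcemp1*-/- for the tested genes of 12 lists, with 1 point per gene and a black bar at the median of the list. The median of the primary granule genes is -9.97 in replicate 4, -9.98 in replicate 5 and 0.05 in replicate 6, and the mast cell list is at 0.90, 0.90 and 0.08.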

How the data were processed

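RNA of the 6 PCMC samples was made into libraries with the KAPA mRNA HyperPrep kit and sequenced on an Illumina NextSeq instrument. The authors processed the reads in Partek Flow, and the genome build in their processing notes is mm10. They deposited 1 normalized count per gene and library, a value close to CPM, without pooling replicates. The aligner, the normalization, the use of strand and the sequencing run of each library are not stated in those sources. GENCODE vM21 has the same start for 97.2% of the genes. Only 40.0% to 50.6% of low values are whole multiples of the lowest value of the library (tolerance 0.01, up to 20 multiples). Whole reads were therefore not recovered, and count models were not run. Depth would be 14.8 to 23.6 M reads if the lowest value were 1 read, which is an inference.

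The test was limma 3.58.1 in R 4.3.3, two-sided, with a trended eBayes fit to log2(normalized count + 0.479), where 0.479 is 0.5 CPM at the mean total. It covered all genes whose mean reached 1 CPM, with Benjamini-Hochberg adjustment over them and a threshold of 0.05. The added constant makes fold changes of low genes too small. The procedure was tested on simulated data. Alternatives were other pseudocounts, filters, scalings (among them trimmed means of M values, TMM) and eBayes settings, and each library left out. The 5 genes, the lists and the tests were chosen with earlier results of these data known. Named genes are the 5 genes, the 3 of highest mean in each list with up to 3 further genes past the threshold, and examples among the neighbours of at least 1 CPM. The 10 genes nearest to the mean profile of the 5 are named too. The nearest single genes to each of the 5, *Spi1*, *Ctsc* and the spread examples were added after their values were seen. A gene that this rule names in the azurophil list is not reported here. Motifs were searched in RefSeq promoter windows, and figures were drawn with matplotlib 3.10.9.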

Additional observations from a re-analysis of the deposited data

How the results depend on the processing

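The result for *Mpo*, *Elane*, *Prtn3* and *Ms4a3* depends on 1 library. Over the alternatives other than leaving libraries out (pseudocount, filter, scaling and eBayes settings), the log2 fold changes from limma with 6 libraries stayed between -8.26 and -7.34 for *Mpo*, -7.56 and -5.56 for *Elane*, -7.55 and -5.57 for *Prtn3*, -5.23 and -4.60 for *Ms4a3* and -0.08 and -0.02 for *Ctsg*, and none passed (adjusted p 0.18 to 0.96). Leaving out 1 library at a time gave -11.95 to -5.99, -10.05 to -4.96, -10.06 to -4.96, -7.61 to -3.73 and -0.27 to 0.19 in the same order. The first 4 genes passed only without the library labelled *Mcemp1*-/- replicate 6. *Ctsg* was at 0.10 without *Mcemp1*+/+ replicate 1, 0.02 without replicate 4 and 0.19 without replicate 5, never past the threshold.

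The counts of genes past the threshold (8 lower, 2 higher) ran from 0 to 3018 lower and 0 to 2621 higher when 1 library was left out, the upper ends without replicate 6, and a pseudocount of 2 CPM gave 5 lower. Other alternatives were chosen after seeing the data. *Xist* was high in replicate 3 and replicate 6, 1 library of each group, and a term for these libraries gave 11 lower and 6 higher, with the fold changes of the 5 genes as before and none past the threshold (adjusted p = 0.11 for the first 4, 0.95 for *Ctsg*, limma). Leaving out replicates 2 and 6 together gave 2573 lower and 2207 higher, with *Mpo* at -12.06, *Elane* -10.24, *Prtn3* -10.23 and *Ms4a3* -7.79. Without replicate 6, a pseudocount of 0.1 CPM gave 3062 and 2639, with -12.37, -11.37, -11.35 and -7.87, and one of 2 CPM gave 2885 and 2598, with -10.98, -8.36, -8.38 and -6.92. The size of the falls of *Elane* and *Prtn3* is thus set in part by the pseudocount, since their values in replicates 4 and 5 are below it. No paired analysis was possible because the groups share no replicate number.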
